A study of Mus musculus with 12 samples.

Results

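Fatty acid oxidation and peroxisomal lipid enzymes were followed as a group of 47 genes in whole kidney tissue of 12 mice. The genes were taken by name from the table of gene expression, and a gene was kept if it had at least 1 FPKM (a level per transcript length, relative to all mapped fragments of the mouse) in at least 4 mice. All 47 listed genes were found and all 47 met this minimum, among 13148 genes of 22053 rows that did. By the main place of their proteins, 19 were counted as mitochondrial and 19 as peroxisomal, and 9 act in several compartments or in the cytosol. All 3 groups of 4 mice are used. The FPKM minimum reads the level of a gene and not its difference between groups. The list of members itself was chosen with earlier results of these data known. Counts of members are therefore set beside the share of all genes without a test of the list.

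All mice were wild-type C57BL/6. Control mice ate the diet without adenine and CKD mice ate the same diet with 0.2% adenine from 8 to 16 weeks of age, which injures the tubules and causes chronic kidney disease (CKD). Both of these groups received weekly i.p. PBS. CKD+Fe mice ate the adenine diet over the same weeks and were injected i.p. each week with iron dextran, 0.5 g/kg per dose. The adenine diet is therefore shared by CKD and CKD+Fe mice, and iron was not given to mice on the control diet. Each mouse gave 1 library. Values are given in the order of mice 012811, 012822, 042301 and 042310 for control, 021320, 022301, 110310 and 120102 for CKD, and 042702, 062910, 111710 and 122320 for CKD+Fe.

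Fatty acids are the main fuel of the proximal tubule. They are activated to acyl-CoA, carried into mitochondria as carnitine esters, and shortened in repeated rounds of dehydrogenation, hydration, a second dehydrogenation and thiolysis that feed electrons to the respiratory chain. Peroxisomes run a parallel chain on very long, branched and dicarboxylic acids with acyl-CoA oxidases and multifunctional enzymes, and pass the shortened products on to mitochondria. Many genes of both chains are activated by the nuclear receptor PPARα, which binds DNA with RXR at direct repeats of the letters AGGTCA.

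The windows before the start sites of 4 members are shown because these genes lead the results below. Acsm3 had the largest fall in CKD mice and Acadm is the abundant medium chain dehydrogenase, both mitochondrial. Ehhadh and Acaa1b are the peroxisomal members with the largest differences between CKD+Fe and CKD mice. Each window is the 250 bases before the RefSeq start site in GRCm38.p6, read 5′ to 3′ on the strand of the gene, and capitals mark AGGTCA or the box CCAAT on either strand. The positions are chr7:119760673-119760922 (plus strand) for Acsm3, chr3:153944644-153944893 (minus strand) for Acadm, chr16:21787835-21788084 (minus strand) for Ehhadh and chr9:119157094-119157343 (minus strand) for Acaa1b.
Acsm3: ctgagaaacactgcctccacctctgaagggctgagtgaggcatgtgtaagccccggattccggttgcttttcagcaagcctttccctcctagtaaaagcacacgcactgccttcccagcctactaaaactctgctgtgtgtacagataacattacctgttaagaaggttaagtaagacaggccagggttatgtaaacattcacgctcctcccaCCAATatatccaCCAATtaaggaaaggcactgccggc
Acadm: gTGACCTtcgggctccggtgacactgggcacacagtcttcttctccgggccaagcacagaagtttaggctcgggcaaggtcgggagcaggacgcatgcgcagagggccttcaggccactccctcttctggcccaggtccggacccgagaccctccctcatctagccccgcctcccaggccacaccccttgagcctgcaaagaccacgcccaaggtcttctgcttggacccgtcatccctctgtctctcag
Ehhadh: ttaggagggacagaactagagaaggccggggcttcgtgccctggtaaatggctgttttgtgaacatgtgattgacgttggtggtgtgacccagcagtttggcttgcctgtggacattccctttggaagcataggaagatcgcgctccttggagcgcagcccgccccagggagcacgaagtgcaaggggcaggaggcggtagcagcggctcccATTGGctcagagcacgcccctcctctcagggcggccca
Acaa1b: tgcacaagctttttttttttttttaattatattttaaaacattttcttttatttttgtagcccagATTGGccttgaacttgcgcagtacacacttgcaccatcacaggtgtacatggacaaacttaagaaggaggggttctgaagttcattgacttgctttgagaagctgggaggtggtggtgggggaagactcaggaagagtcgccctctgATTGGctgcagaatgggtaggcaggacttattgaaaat

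Of the 47 genes, 40 had such a window, with 45 windows in all. The full repeat AGGTCANAGGTCA was in 0 of the 45 windows and in 0.0335% of all 32851 windows of the same length, both strands searched. The looser form AGGNCANAGGNCA was also in 0 of 45, beside 0.338% of all windows. Single copies of AGGTCA, which the full repeat contains, were in 8 of 45 windows (17.8%, beside 14% of all), at Acadm, Acadvl, Acot12, Acot4, Cpt1a, Echs1, Scp2 and Slc27a2. The box CCAAT was in 19 of 45 windows (42.2%, beside 33.8% of all), in 10 of 20 peroxisomal and in 6 of 18 mitochondrial windows. These counts describe letters in the windows.

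Each kidney is represented by an estimated 20.3 to 30.8 megareads, and the summed FPKM of a mouse ran from 503438 to 707843. FPKM are relative to the total of a mouse, and most genes were higher in CKD than in control mice as deposited, the log2 fold changes of the 13148 genes tested having a median of 0.50, and median-of-ratios rescaling brought this median to 0.01. Changes are therefore given as deposited and, where the call or direction turns on it, after rescaling. One mouse of each group stood farthest from the others of its group: control mouse 042301, CKD mouse 110310 and CKD+Fe mouse 042702 had 596, 806 and 442 genes at least 2-fold from the rest of their group. Adipocyte genes were present in some kidneys, and the summed FPKM of 8 such genes (Adipoq, Plin1, Cidec, Cfd, Retn, Lep, Ucp1 and Cidea) was 135 in CKD+Fe mouse 122320, 20.1 in CKD+Fe mouse 111710 and 16.8 in control mouse 012822, against 0.524 to 2.12 in the other mice. The replicates are separate mice, and labels name no batch.

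Fatty acid oxidation genes were lower in CKD than in control mice in both compartments. Of the 47 members, 39 were lower past the threshold (limma, Benjamini-Hochberg adjusted p under 0.05) and 0 were higher. In the same comparison 13.3% of all genes tested were lower and 54.6% were higher. Because the members were chosen with earlier results known, the gap between these shares was not tested. The 39 were 16 of 19 mitochondrial, 15 of 19 peroxisomal and 8 of 9 members of several compartments. Median log2 fold changes were -1.05, -1.10 and -1.30 in these groups, against 0.50 for all genes. For 36 of the 47 members every CKD mouse was below every control mouse, which was so for 10.4% of all genes tested. With the median-of-ratios scaling 44 members were lower and 0 higher, beside 29.3% and 28.8% of all genes. Together the members made up 1.91 ± 0.236% of the summed FPKM in control mice, 0.703 ± 0.130% in CKD mice and 0.884 ± 0.180% in CKD+Fe mice (SD, n = 4).

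**Figure D1:**
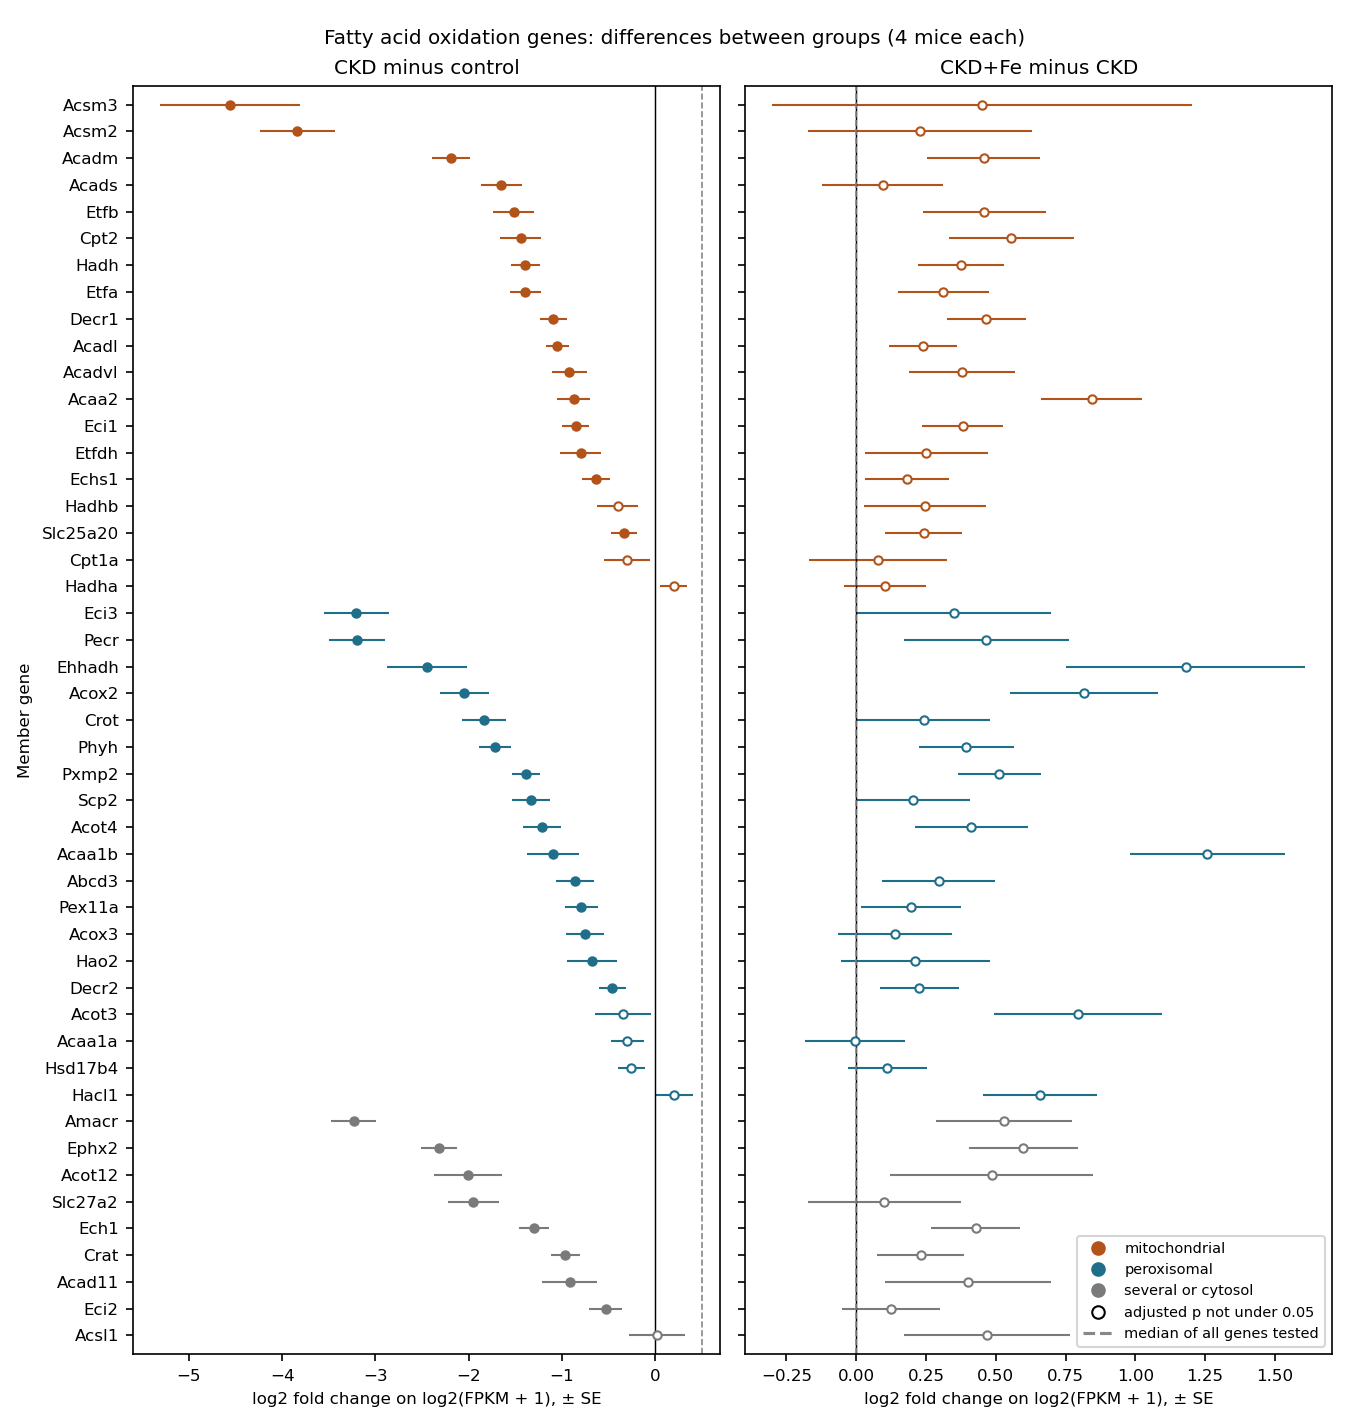
Log2 fold change of each of the 47 members on the log2(FPKM + 1) scale with its standard error, for CKD minus control (left) and CKD+Fe minus CKD (right), 4 mice per group. Colors give the compartment, filled points have an adjusted p under 0.05, and dashed lines mark the median of all genes tested, which is 0.50 on the left and 0.00 on the right; 39 points are filled on the left and 0 on the right.

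Cell type markers differed between the same kidneys. Of 16 proximal tubule markers, 15 were lower and 0 higher in CKD mice, with a median log2 fold change of -2.44. Their summed FPKM was 72264 to 97430 in control, 1961 to 9285 in CKD and 3188 to 12608 in CKD+Fe mice, without a marker at 0 in all mice. The marker Kap alone made up 64404 to 89890, 1026 to 7554 and 1991 to 9740 FPKM of these sums. All 9 macrophage, all 8 fibroblast and all 9 injured tubule markers were higher in CKD mice. Summed FPKM of the injured tubule list ran from 676 to 1005 in control, 12184 to 21755 in CKD and 8908 to 15987 in CKD+Fe mice. The macrophage sums were 389 to 725, 2497 to 5565 and 2572 to 5043 in the same order of groups. Fibroblast sums were 92.4 to 128, 487 to 880 and 404 to 566. Of the other lists, 5 of 14 genes of other nephron segments and 1 of 6 endothelial genes were lower, and 3 of 4 tested T and B cell genes were higher. After rescaling these counts were 6 of 14, 4 of 6 and 1 of 4, and 7 of 8 fibroblast genes were higher. None of 8 papilla and urothelium genes was called, and 1 skeletal muscle gene was listed at 0 in every mouse. The part of these cells in the falls of the members was not tested, and in whole tissue fewer proximal tubule cells and less RNA of a gene per cell cannot be told apart.

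Medium and short chain activation and dehydrogenation gave the largest mitochondrial falls. Acsm3 (ENSMUSG00000030935, chr7:119760923-119787513) and Acsm2 (chr7:119554340-119600690) encode medium chain acyl-CoA synthetases of the mitochondrial matrix and lie on chromosome 7. Acsm3 was at 639, 495, 419 and 639 FPKM in the 4 control mice and at 54.3, 8.03, 57.9 and 8.44 FPKM in CKD mice. In CKD+Fe mice it was at 6.79, 115, 22.6 and 44.6 FPKM, and group means were 548 ± 109.5, 32.2 ± 27.7 and 47.2 ± 47.7 FPKM (SD, n = 4). No CKD or CKD+Fe mouse reached a control mouse, and CKD mice 022301 and 120102 were far below the other pair. The log2 fold change in CKD mice was -4.56 (SE 0.75, adjusted p = 0.000148), with an exact two-sided permutation p of 0.0286, the smallest that 4 mice against 4 allow.

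Acsm2, with the highest level of the mitochondrial members in control mice, was at 1646, 1741, 1362 and 1946 FPKM there and at 184, 59.6, 183 and 86.9 FPKM in CKD mice. CKD+Fe mice had 61.5, 241, 167 and 133 FPKM, and the same CKD mice 022301 and 120102 were lowest in their group. The log2 fold change was -3.84 (SE 0.40, adjusted p = 3.80e-06). Acsm2 and Acsm3 belong to a family of similar neighboring genes, so reads may be shared between them, and their separate values are uncertain to that extent.

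Acadm (medium chain acyl-CoA dehydrogenase, chr3:153922357-153944632) catalyzes the first step of each round for medium chains. It was at 768, 636, 566 and 592 FPKM in control and 185, 118, 126 and 134 FPKM in CKD mice. CKD+Fe mice had 126, 216, 208 and 232 FPKM, and the means were 641 ± 89.9, 141 ± 30.1 and 196 ± 47.4 FPKM (SD, n = 4). All mice on the adenine diet were below every control mouse. Its log2 fold change in CKD mice was -2.19 (SE 0.20, adjusted p = 1.38e-06). Acads, the short chain dehydrogenase, was at 168, 189.7, 136 and 164 FPKM in control and 49.6, 37.97, 85.8 and 43.1 FPKM in CKD mice, with 59.3, 66.2, 48.8 and 47.7 in CKD+Fe mice. The CKD and CKD+Fe mice overlapped and both groups lay below control, and the fold change of CKD was -1.65 (SE 0.22, adjusted p = 2.24e-05). Acadl and Acadvl, for long and very long chains, were lower at -1.05 and -0.92 (adjusted p = 9.29e-06 and 0.000811).

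Electrons from these dehydrogenases pass through the flavoprotein made by Etfa and Etfb and the dehydrogenase Etfdh. Etfb was at 647, 645, 844 and 502 FPKM in control, 244, 189, 352 and 162 in CKD and 289.6, 349, 304 and 306 FPKM in CKD+Fe mice. The lowest control mouse was above all CKD mice, and the fold change was -1.52 (SE 0.22, adjusted p = 5.32e-05). Etfa had a fold change of -1.39 (SE 0.16, adjusted p = 9.36e-06) and Etfdh one of -0.80 (SE 0.22, adjusted p = 0.00567). For Etfdh control mouse 042301, at 45.7 FPKM, lay within the CKD range of 38.0 to 47.0.

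In the carnitine shuttle 2 of 3 genes were lower. Cpt2, which frees the acyl group inside the mitochondrion, was at 107, 119.6, 137 and 90.3 FPKM in control and 42.8, 38.02, 45.9 and 36.6 FPKM in CKD mice, a fold change of -1.44 (SE 0.22, adjusted p = 9.07e-05). In CKD+Fe mice it was at 36.3, 83.96, 55.4 and 78.03 FPKM, still below the lowest control mouse. Slc25a20, the carrier across the inner membrane, was lower at -0.33 (SE 0.14, adjusted p = 0.0486), and this call was lost when any 1 mouse of the pair of groups other than control mouse 042310 was left out, with adjusted p up to 0.145. It was also lost without a variance trend and without both CKD+Fe mice with adipocyte transcripts. Cpt1a, which makes the carnitine ester at the outer membrane, was at 88.8, 89.7, 57.7 and 115 FPKM in control, 72.2, 60.6, 59.7 and 86.5 in CKD and 44.5, 95.95, 71.9 and 91.4 FPKM in CKD+Fe mice. The 3 groups overlapped, and the fold change of CKD was -0.30 (SE 0.25, adjusted p = 0.287), or -0.88 (adjusted p = 0.0124) after rescaling.

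In the later steps of each mitochondrial round 5 of 7 genes were lower. The short chain hydroxyacyl-CoA dehydrogenase Hadh was lower at -1.39 (SE 0.15, adjusted p = 5.70e-06), the thiolase Acaa2 at -0.87 (SE 0.18, adjusted p = 0.000793) and the hydratase Echs1 at -0.63 (SE 0.15, adjusted p = 0.00216). With quantile normalization the call of Echs1 was lost, at -0.33 (adjusted p = 0.113). Decr1 and Eci1, auxiliary enzymes for unsaturated chains, were lower at -1.09 and -0.85 (adjusted p = 2.14e-05 and 0.000179). The 2 genes of the trifunctional protein, which carries out the last 3 steps for long chains, were not called. Its subunit Hadha was at 76.9, 86.6, 57.4 and 75.2 FPKM in control, 83.9, 83.4, 92.5 and 77.7 in CKD and 72.4, 95.7, 94.6 and 103 FPKM in CKD+Fe mice. The groups overlapped, with a fold change in CKD of 0.20 (SE 0.15, adjusted p = 0.243) as deposited that turned to -0.37 (adjusted p = 0.0686) after rescaling.

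Hadhb, the other subunit, lies head to head with Hadha on chromosome 5 with 85 bases between the loci (chr5:30118304-30155162 and chr5:30155248-30184593). It was at 75.02, 59.9, 39.2 and 74.6 FPKM in control and 61.6, 40.5, 37.2 and 45.7 FPKM in CKD mice, with a fold change of -0.40 (SE 0.22, adjusted p = 0.117), or -0.97 (adjusted p = 0.00265) after rescaling. The ratio of Hadha to Hadhb FPKM in each mouse, which does not depend on the scaling of the mouse, was 1.02, 1.45, 1.46 and 1.01 in control mice. It was 1.36, 2.06, 2.49 and 1.702 in CKD mice and 1.74, 1.78, 1.45 and 1.77 in CKD+Fe mice. CKD mouse 021320, at 1.36, and CKD+Fe mouse 111710, at 1.45, lay within the control range. This ratio was chosen after the values were seen and was not tested.

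**Figure D2:**
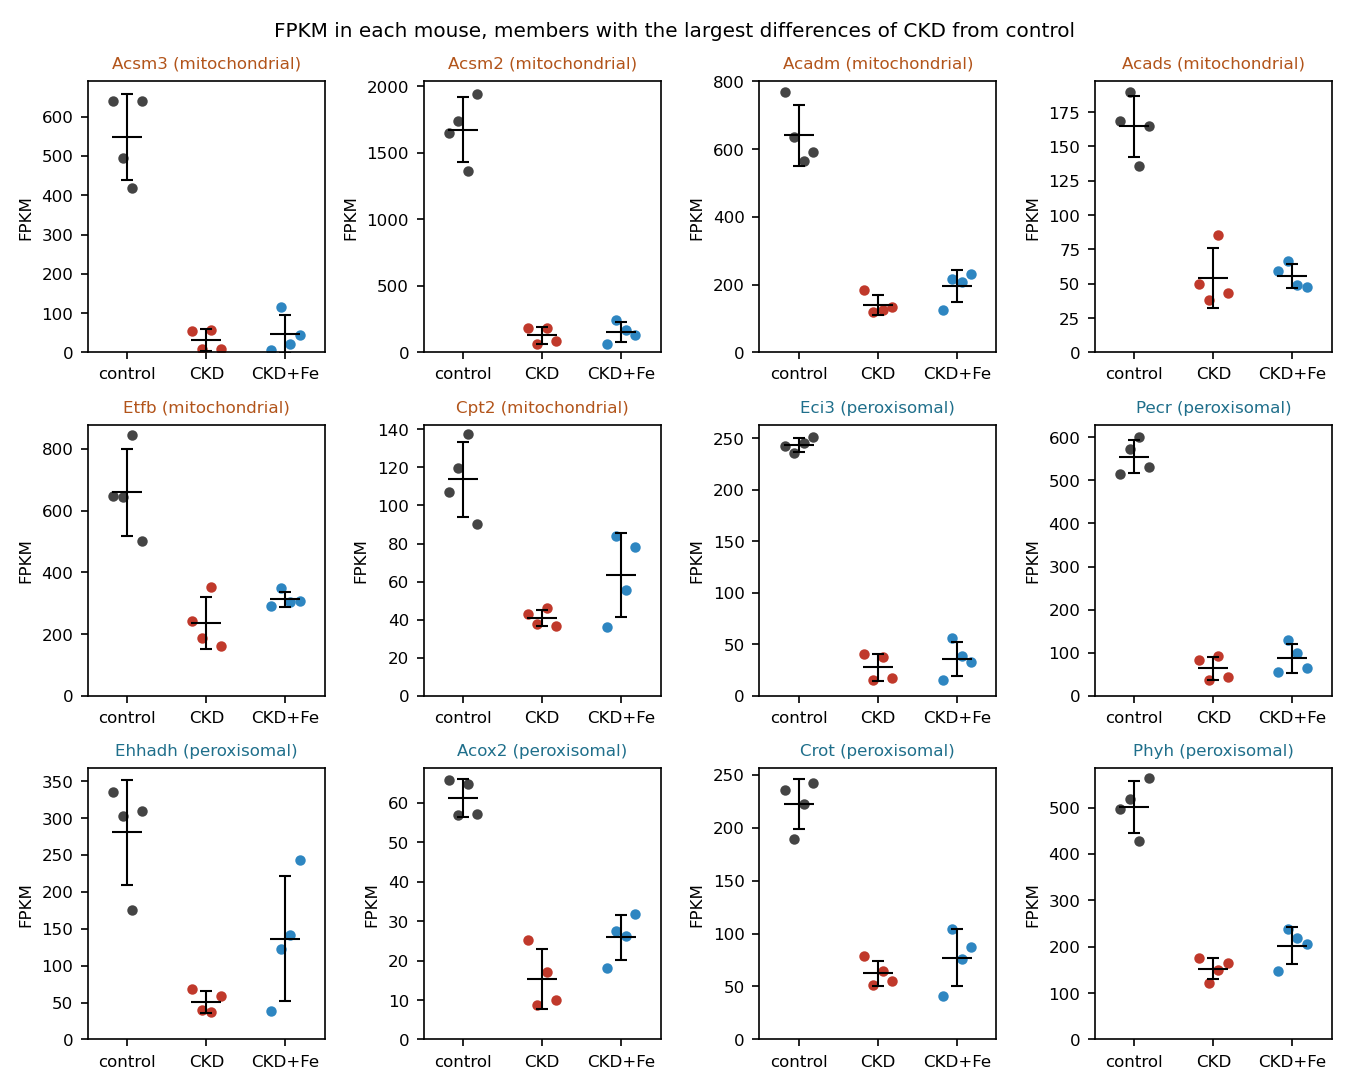
FPKM in each of 12 mice for the 6 mitochondrial and 6 peroxisomal members with the largest fall of CKD from control, on axes that start at 0; points are mice, and bars are the mean and SD of 4 mice. All control mice lie above all CKD mice in each panel, and for Ehhadh CKD+Fe mouse 122320 (244 FPKM) lies within the control range.

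Of the peroxisomal members, which include proteins outside the oxidation chain, 15 of 19 were lower, with fold changes down to -3.21. Eci3, an enoyl-CoA isomerase (chr13:34946614-34963810), was at 243, 236, 245 and 252 FPKM in control and 40.2, 15.8, 38.1 and 17.2 FPKM in CKD mice, with 15.9, 56.2, 38.4 and 33.2 in CKD+Fe mice. Control mice were close together, with an SD of 6.60 around a mean of 244, while CKD mice 022301 and 120102 were again lower than the other pair. The fold change was -3.21 (SE 0.35, adjusted p = 5.04e-06). Eci3 adjoins Eci2 on chromosome 13 and is similar to it, so reads may be shared. Eci2, found in both compartments, was lower at -0.53 (SE 0.18, adjusted p = 0.0173), a call lost without control mouse 012811 or 012822 (adjusted p = 0.0586 at most) and with quantile normalization (adjusted p = 0.104).

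Pecr, the peroxisomal enoyl-CoA reductase, had the highest peroxisomal level in control mice at 516, 572, 601 and 531 FPKM. It was at 82.5, 37.1, 91.6 and 44.2 FPKM in CKD mice and at 55.1, 129, 98.7 and 65.8 FPKM with iron. The highest mouse on the adenine diet, CKD+Fe mouse 062910, was far below the lowest control mouse. The fold change was -3.20 (SE 0.30, adjusted p = 1.45e-06).

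Ehhadh, the bifunctional enzyme of straight chain peroxisomal oxidation (chr16:21761287-21787844), was at 335, 303, 176 and 309 FPKM in control and 67.9, 39.6, 37.4 and 58.5 FPKM in CKD mice, a fold change of -2.44 (SE 0.43, adjusted p = 0.000237). Acox2, the oxidase of branched chains and bile acid intermediates, was at 65.8, 56.9, 64.8 and 57.2 FPKM in control and 25.2, 8.701, 17.1 and 10.1 FPKM in CKD mice, a fold change of -2.05 (SE 0.26, adjusted p = 1.98e-05). For both genes the CKD and control mice did not overlap. Acox3, also an oxidase of branched chains, was lower at -0.75 (SE 0.20, adjusted p = 0.00505).

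Crot, which makes carnitine esters for export from peroxisomes, was at 236, 189, 222 and 242 FPKM in control, 78.5, 51.05, 64.3 and 55.2 in CKD and 40.5, 104, 76.3 and 86.9 FPKM in CKD+Fe mice. Its fold change in CKD was -1.83 (SE 0.24, adjusted p = 2.12e-05). Phyh, which starts the breakdown of phytanic acid, was at 497, 518, 428 and 563 FPKM in control, 175, 122, 149.6 and 165 in CKD and 147, 238, 219.7 and 206 FPKM in CKD+Fe mice. Control mice did not overlap with either group on the adenine diet for Crot or Phyh, and the fold change of Phyh in CKD was -1.72 (SE 0.17, adjusted p = 2.52e-06). CKD+Fe mouse 042702 was the lowest of its group for both.

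Among the other peroxisomal members, Pxmp2 (a membrane channel), Scp2 (a thiolase and lipid carrier) and Acot4 (a thioesterase) were lower in CKD mice at -1.38, -1.33 and -1.21, with adjusted p between 4.58e-06 and 0.000157. Abcd3 (a fatty acid transporter), Pex11a (a factor of peroxisome division), Hao2 (a hydroxyacid oxidase) and Decr2 (a dienoyl-CoA reductase) fell by 0.86, 0.79, 0.68 and 0.46 on the log2 scale. Hao2, with an adjusted p of 0.0371, had the highest p of these, and its control and CKD mice overlapped. Its call was lost without control mouse 012811, 012822 or 042310 and without CKD mouse 022301, 110310 or 120102 (adjusted p up to 0.119). Quantile normalization and a fit without a filter on low values also lost the Hao2 call. So did leaving out both CKD+Fe mice with adipocyte transcripts, with adjusted p up to 0.13 over these settings. The multifunctional enzyme Hsd17b4 had a fold change of -0.25 (SE 0.14, adjusted p = 0.127), or -0.83 (adjusted p = 0.000592) after rescaling. Acot3, a thioesterase at the lowest level of the members, was at 10.9, 9.74, 3.302 and 5.94 FPKM in control and 6.98, 4.38, 3.6 and 6.46 FPKM in CKD mice, with a fold change of -0.34 (SE 0.30, adjusted p = 0.327), or -0.84 (adjusted p = 0.034) after rescaling. Acot3 and Acot4 are neighboring genes of a similar family, so their values may share reads.

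The peroxisomal thiolases Acaa1a (chr9:119339676-119350299) and Acaa1b (chr9:119148023-119157093) are near copies on chromosome 9, and reads that fit both make each value uncertain. Acaa1b was at 148, 190.3, 111 and 118 FPKM in control and 72.97, 54.9, 72.04 and 59.3 FPKM in CKD mice, without overlap, and its fold change was -1.10 (SE 0.28, adjusted p = 0.00343). Acaa1a was at 70.7, 88.1, 62.8 and 69.95 FPKM in control and 50.2, 55.9, 82.7 and 51.1 FPKM in CKD mice, where CKD mouse 110310 alone lay within the control range. Its fold change was -0.30 (SE 0.18, adjusted p = 0.158), or -0.87 (adjusted p = 0.00148) after rescaling. Hacl1, the lyase that shortens phytanic acid after Phyh, was not called. It was at 23.3, 22.1, 28.9 and 27.5 FPKM in control and 24.3, 29.6, 23.8 and 43.2 FPKM in CKD mice, with a fold change of 0.21 (SE 0.20, adjusted p = 0.379) that turned to -0.35 (adjusted p = 0.156) after rescaling.

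Of the 9 members that act in several compartments or in the cytosol, 8 were lower in CKD mice. Slc27a2, the very long chain acyl-CoA synthetase and fatty acid transporter, had the highest level of all members in control mice at 2258, 2176, 1707 and 2181 FPKM. It was at 718, 377, 587 and 513 FPKM in CKD mice and at 321, 853, 575 and 687 FPKM with iron, and the fold change in CKD was -1.95 (SE 0.27, adjusted p = 3.90e-05). Ech1, a dienoyl-CoA isomerase, was at 516, 529.7, 655 and 424 FPKM in control, 239, 194, 247 and 179 in CKD and 254, 286, 294 and 317 FPKM in CKD+Fe mice. Control mice were above all others for both genes, and the fold change of Ech1 in CKD was -1.30 (SE 0.16, adjusted p = 1.28e-05).

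Amacr, a racemase needed for branched chains, had a fold change of -3.23 (SE 0.24, adjusted p = 2.68e-07), from 195 ± 25.7 FPKM in control to 20.6 ± 6.89 FPKM in CKD mice (SD, n = 4). Ephx2, an epoxide hydrolase, and Acot12, a cytosolic thioesterase, were lower at -2.32 and -2.004 (adjusted p = 6.45e-07 and 0.000304). Crat, carnitine acetyltransferase, and the dehydrogenase Acad11 were lower at -0.96 and -0.92 (adjusted p = 0.00013 and 0.0143). Acsl1, a long chain acyl-CoA synthetase, was at 41.8, 37.7, 37.1 and 59.3 FPKM in control, 44.96, 42.7, 26.2 and 72.7 in CKD and 38.6, 58.3, 63.02 and 96.7 FPKM in CKD+Fe mice. Its groups overlapped, with a fold change of 0.02 (SE 0.30, adjusted p = 0.955) that turned to -0.55 (adjusted p = 0.135) after rescaling.

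Both compartments were lower in every mouse on the adenine diet than in every control mouse. The mean log2(FPKM + 1) over the 19 mitochondrial members was 7.41 to 7.63 in control, 5.96 to 6.48 in CKD and 6.11 to 6.83 in CKD+Fe mice. The peroxisomal mean was 6.31 to 6.71, 5.06 to 5.61 and 5.27 to 5.98 in the same order. The difference between these means in each mouse was 0.94, 0.92, 1.10 and 0.93 in control, 0.87, 0.89, 1.08 and 0.77 in CKD and 0.84, 0.87, 0.71 and 0.75 in CKD+Fe mice. Group means of this difference were 0.972 ± 0.0876, 0.902 ± 0.131 and 0.791 ± 0.0754 (SD, n = 4), and the CKD range overlapped with both others. All CKD+Fe mice lay below all control mice in this difference, which was not tested.

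**Figure D3:**
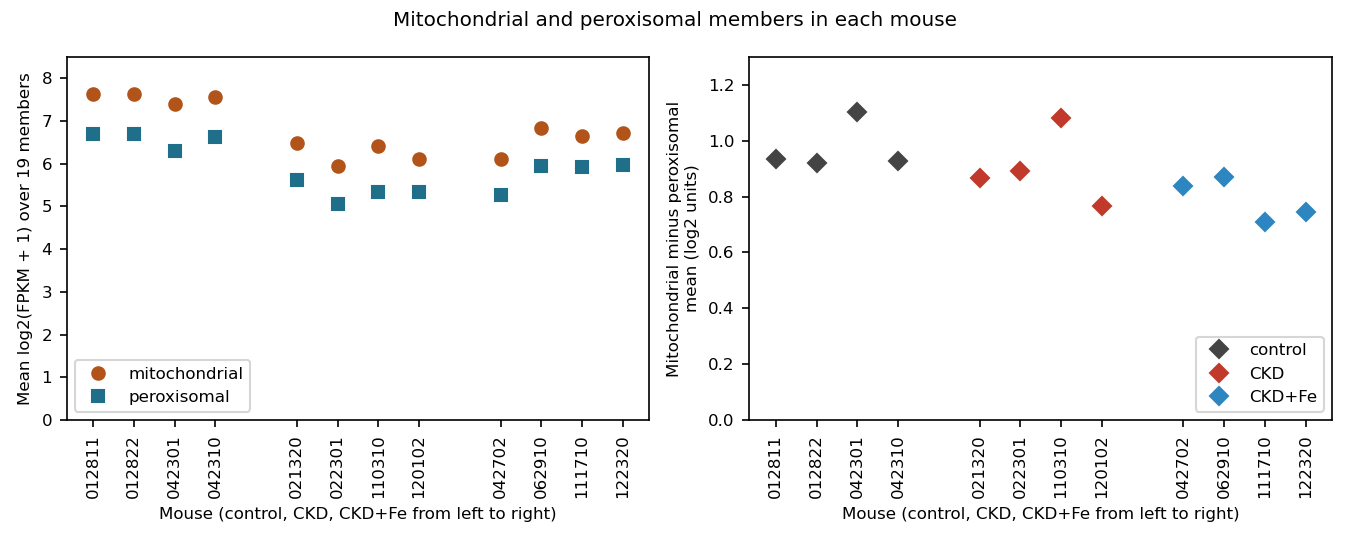
Left, mean log2(FPKM + 1) over the 19 mitochondrial (circles) and 19 peroxisomal (squares) members in each mouse, with both means lower in all mice on the adenine diet than in all control mice. Right, the mitochondrial minus the peroxisomal mean in each mouse, 0.922 to 1.10 in control, 0.768 to 1.08 in CKD and 0.710 to 0.869 in CKD+Fe mice.

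Among CKD mice, mouse 022301 was the lowest of its group for 28 of the 47 members and mouse 021320 the highest for 26. In the order of mice 021320, 022301, 110310 and 120102, the members' share of the summed FPKM was 0.872, 0.556, 0.679 and 0.704%, and the summed proximal tubule markers were 6380, 1961, 9285 and 2338 FPKM. Kap alone made up 4637, 1026, 7554 and 1124 FPKM of these marker sums, so their order rests largely on 1 gene. Mouse 110310, with the highest proximal tubule sum and the highest Kap, had a lower share of members than mouse 120102. Summed injured tubule markers were 12184, 21755, 20084 and 21157 FPKM, lowest in mouse 021320. The part of these markers in the spread was not tested.

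The comparison of CKD+Fe with CKD mice asks what iron therapy changes in kidneys on the adenine diet. It shares the CKD mice with the comparison above, so that a value that is low by chance in CKD mice moves both. By limma, no member passed the threshold between CKD+Fe and CKD mice in either direction (0 of 47), beside 0.00761% of all genes higher (1 gene, Fabp1) and 0% lower. Before adjustment 16 members were higher at p under 0.05 and 0 were lower, beside 3.28% and 2.73% of all genes. The log2 fold change was positive for 46 of the 47 members, beside 49.9% of all genes, and after rescaling for 47. Medians were 0.31 for mitochondrial members, 0.35 for peroxisomal members and 0.43 for those of several compartments, against 0.00 for all genes. For 5 members (Acaa1b, Acaa2, Ech1, Eci1 and Pxmp2) the lowest CKD+Fe mouse exceeded the highest CKD mouse, which was so for 1.35% of all genes.

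Acaa1b had the largest difference with iron. It was at 82.3, 141, 231 and 215 FPKM in CKD+Fe mice against 72.97, 54.9, 72.04 and 59.3 FPKM in CKD mice, and mice 111710 and 122320 were above all control mice. The log2 fold change was 1.26 (SE 0.28, adjusted p = 0.254). The exact two-sided permutation p was 0.0286, the smallest that 4 mice against 4 allow, and was not adjusted for the choice of this gene. Acaa2, Ech1, Eci1 and Pxmp2 reached the same exact p. The neighboring copy Acaa1a was at 75.5, 56.9, 56.1 and 48.7 FPKM in CKD+Fe mice and had the smallest difference of the 47, a fold change of -0.004 (SE 0.18, adjusted p = 0.999), which was 0.0052 after rescaling. The ratio of Acaa1b to Acaa1a was 2.098, 2.16, 1.77 and 1.68 in control mice, 1.45, 0.982, 0.871 and 1.16 in CKD mice and 1.09, 2.48, 4.13 and 4.42 in CKD+Fe mice. In this ratio CKD mice lay below the control range, 3 CKD+Fe mice were above all control mice, and mouse 042702 lay within the CKD range. The ratio was chosen after the values were seen and was not tested. Over 266 columns of a global alignment, the 250 bases before their start sites were identical at 124 (46.6%). The identity of unrelated windows aligned in this way was not measured, so this share does not show similarity.

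Ehhadh was at 38.04, 122, 142 and 244 FPKM in CKD+Fe mice, with mouse 042702 within the CKD range of 37.4 to 67.9 and the other mice above it, and means were 50.8 ± 14.8 FPKM in CKD mice and 136 ± 84.5 FPKM with iron (SD, n = 4). The fold change was 1.18 (SE 0.43, adjusted p = 0.664). Acaa2, the mitochondrial thiolase, was at 173, 209.8, 173 and 169 FPKM in control, 108, 87.2, 93.7 and 105 in CKD and 123, 162, 236 and 209 FPKM in CKD+Fe mice. The CKD+Fe mice all exceeded the CKD mice, with a fold change of 0.84 (SE 0.18, adjusted p = 0.254). CKD+Fe and control mice overlapped for Acaa2, and the fold change between them was -0.03 (SE 0.18, adjusted p = 0.889) as deposited and -0.60 (adjusted p = 0.0176) after rescaling.

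Acox2 was at 18.2, 27.4, 26.3 and 31.8 FPKM in CKD+Fe mice, where only CKD mouse 021320 reached into their range, with a fold change of 0.82 (SE 0.26, adjusted p = 0.542). Acot3 was at 6.57, 9.47, 12.6 and 11.3 FPKM, with a fold change of 0.79 (SE 0.30, adjusted p = 0.72). Hacl1 was at 35.8, 45.1, 46.5 and 64.4 FPKM, with a fold change of 0.66 (SE 0.20, adjusted p = 0.492). For Acot3 and Hacl1 the lowest CKD+Fe mouse, 042702, lay within the CKD range. Cpt1a and Acads had the next smallest differences after Acaa1a, at 0.08 (SE 0.25, adjusted p = 0.993) and 0.10 (SE 0.22, adjusted p = 0.993).

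**Figure D4:**
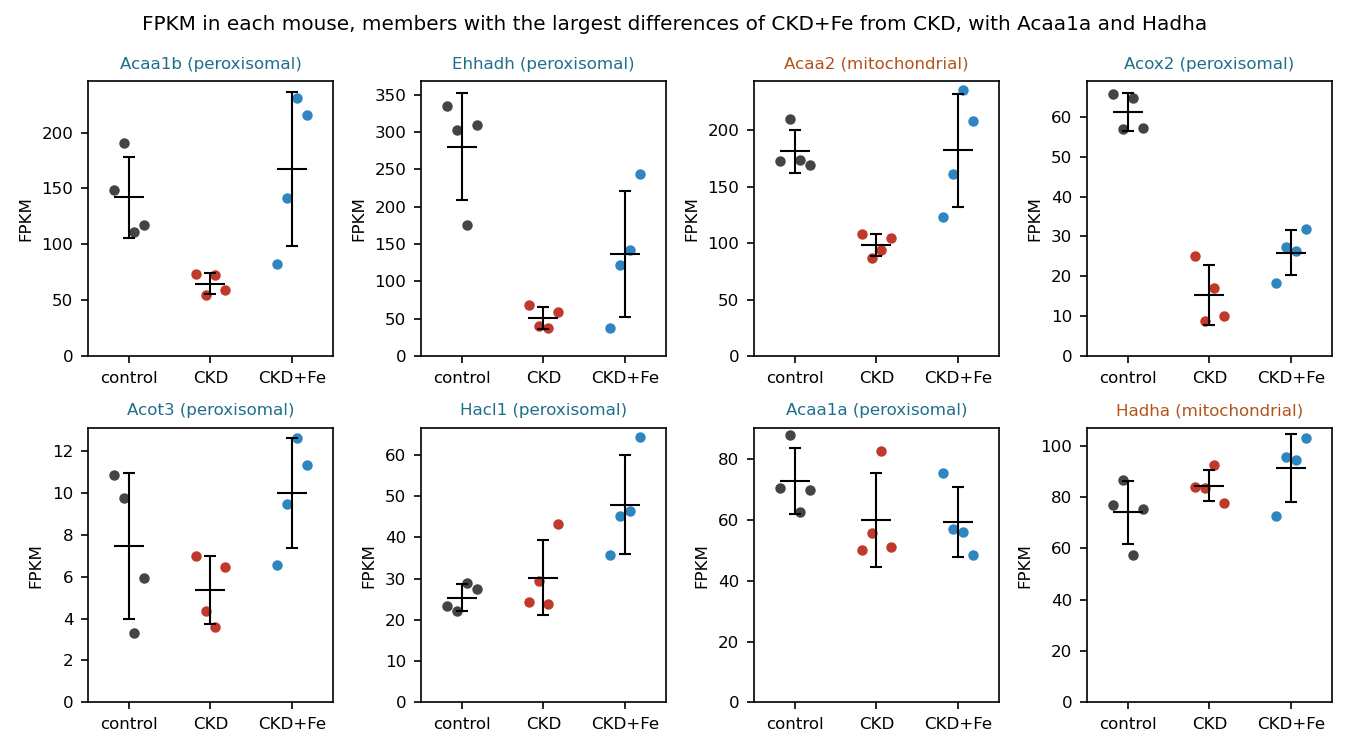
FPKM in each mouse for the 6 members with the largest log2 fold change of CKD+Fe from CKD, and for Acaa1a and Hadha, on axes that start at 0; points are mice, and bars are the mean and SD of 4 mice. CKD+Fe mouse 042702, the leftmost of its group, is the lowest of the 4 in each panel except Acaa1a, where it is the highest at 75.5 FPKM.

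Calls with iron depended on which mice were counted. Mouse 042702 was the lowest of its group for 42 of the 47 members, and without it 2 members passed the threshold, Acaa1b at 1.56 and Acaa2 at 1.02 (adjusted p = 0.0281 for both), beside 0.0685% of all genes. With array quality weights, which give less weight to mice that stand apart, 6 members passed (Acaa1b, Acaa2, Decr1, Ehhadh, Ephx2 and Pxmp2), beside 0.692% of all genes. Without the farthest mouse of each group 5 passed (Acaa1b, Acaa2, Cpt2, Ehhadh and Ephx2), beside 0.388% of all genes. CKD+Fe mice 111710 and 122320, with adipocyte transcripts, were the highest mice for Acaa1b and Acaa2. Without these 2 mice, which left 2 CKD+Fe mice, 0 members passed the threshold, beside 0% of all genes. At an unadjusted p under 0.05, 2 members were higher, and the share of all genes was not counted. The fold change was positive for 44 of the 47 members, with a median of 0.21, against 0.003 for all genes. Acaa1b had a fold change of 0.74 and Acaa2 one of 0.52 (adjusted p = 0.9996 for both). Over all alternatives the adjusted p of Acaa1b ran from 0.0124 to 0.9996. The part of adipocyte RNA in these values was not tested.

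Of the 10 cell type marker lists, 0 held a gene called between CKD+Fe and CKD mice. None of the 8 adipocyte genes above reached 1 FPKM in at least 4 mice, so none was tested. Pck1, which is on that list but is also made by the proximal tubule, was lower in CKD than in control mice at -1.23 (SE 0.44, adjusted p = 0.0235) and not called with iron. Proximal tubule markers had positive fold changes for 15 of 16 genes with a median of 0.50, and the injured tubule list had negative ones for 9 of 9 with a median of -0.59. Fold changes were also positive for 12 of 14 genes of other nephron segments (median 0.39), 8 of 8 papilla and urothelium genes (0.54), 6 of 6 endothelial genes (0.18) and 4 of 4 T and B cell genes (0.41), and negative for 6 of 9 macrophage genes (-0.05) and 6 of 8 fibroblast genes (-0.39). Their part in the positive fold changes of the members was not tested. Mouse 042702 had the lowest summed proximal tubule markers of its group at 3188 FPKM, and 062910 the highest at 12608. Kap alone made up 1991 and 9740 FPKM of these sums.

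Against control mice, CKD+Fe mice had 32 of the 47 members lower and 1 higher, beside 11% and 54.4% of all genes tested. The lower members were 14 of 19 mitochondrial, 12 of 19 peroxisomal and 6 of 9 of several compartments, with median fold changes of -0.62, -0.62 and -0.87. After rescaling 42 were lower and 0 higher, beside 27.5% and 27.7% of all genes, and the 10 members called in addition were Acaa1a, Acaa2, Acad11, Cpt1a, Decr2, Eci2, Hadhb, Hao2, Hsd17b4 and Slc25a20. Every CKD+Fe mouse was below every control mouse for 26 members and above for 1, beside 9.82% and 50.3% of all genes. CKD and CKD+Fe mice share these control mice, so the 2 counts of lower members are not independent. Acsm3, Acsm2, Eci3, Pecr and Amacr stayed at -4.11, -3.61, -2.86, -2.73 and -2.70 (adjusted p between 1.64e-06 and 0.000381), with every CKD+Fe mouse below every control mouse. The gene called higher was Hacl1, at 0.87 (SE 0.20, adjusted p = 0.0022) with all CKD+Fe mice above all control mice, and at 0.31 (adjusted p = 0.208) after rescaling. Acaa1b had a fold change of 0.16 (SE 0.28, adjusted p = 0.624) as deposited and -0.40 (adjusted p = 0.263) after rescaling.

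Other genes of the pathway were counted in lists beside the members. Counts of these lists in CKD mice stand beside 13.3% lower and 54.6% higher among all genes tested. Of 17 transcriptional regulators, 5 were lower and 3 higher in CKD mice, and 0 were called with iron. Ppara, which encodes PPARα, was at 7.22, 7.72, 3.81 and 10.3 FPKM in control, 8.16, 4.17, 4.99 and 14.7 in CKD and 2.48, 9.66, 11.04 and 13.2 FPKM in CKD+Fe mice, with overlap of all groups and a fold change in CKD of 0.05 (SE 0.44, adjusted p = 0.928), or -0.46 after rescaling. Ppargc1a, its coactivator, was at 8.46, 6.94, 8.14 and 11.6, 14.6, 12.8, 7.42 and 17.2 and 8.72, 12.6, 22.5 and 18.8 FPKM in the same order, with a fold change in CKD of 0.48 (SE 0.28, adjusted p = 0.144), or -0.05 after rescaling. Hnf4a, a factor of proximal tubule and liver genes, was lower in CKD mice at -1.52 (SE 0.21, adjusted p = 9.53e-05). Its estimate failed in 1 mouse of each group, which the fit left out, and the other mice had 197, 214 and 181 FPKM in control and 76.0, 47.4 and 87.2 FPKM in CKD.

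Of 12 Ppara target genes outside the members that were tested, 6 were lower and 2 higher in CKD mice, and 1 was called with iron. That gene was Fabp1, the fatty acid binding protein of liver, at 1.24, 1.35, 2.97 and 1.84 FPKM in control, 3.41, 2.44, 0.891 and 5.65 in CKD and 28.5, 16.4, 73.5 and 46.1 FPKM in CKD+Fe mice. Every CKD+Fe mouse was above all other mice, with a fold change against CKD of 3.30 (SE 0.42, adjusted p = 0.0284). The call was lost with a pseudocount of 0.1, without a filter, with the 2 groups alone and without both mice with adipocyte transcripts, and when control mouse 012811, 012822 or 042310, CKD mouse 022301 or 110310, or CKD+Fe mouse 111710 or 122320 was left out. Over all 22 alternatives the fold change of Fabp1 was 2.61 to 3.74 and its adjusted p 0.00445 to 0.326. Ketone body and propionate genes were lower in 10 of 11 cases in CKD mice and called in 0 with iron. Among other acyl-CoA enzymes 15 of 26 were lower and 5 higher, and among other peroxisomal proteins 15 of 27 were lower and 2 higher. Fatty acid synthesis and storage genes had 2 of 18 lower and 8 higher. After rescaling (29.3% and 28.8% of all genes lower and higher), 7 regulators were lower and 0 higher, and the Ppara target genes had 6 lower and 1 higher. Ketone body and propionate genes then had 10 lower and 0 higher, and other acyl-CoA enzymes 19 lower and 4 higher. Other peroxisomal proteins had 24 lower and 0 higher, and synthesis and storage genes 5 lower and 3 higher.

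The largest falls of these lists in CKD mice were those of Cyp4a12a, an omega-hydroxylase, of Nudt19, a peroxisomal CoA hydrolase, and of Cd36, a fatty acid uptake receptor. Cyp4a12a was at 31.3, 59.3, 46.5 and 60.6 FPKM in control and 0.535, 0.698, 0.534 and 1.297 FPKM in CKD mice, a fold change of -4.81 (SE 0.23, adjusted p = 1.87e-08). Nudt19 went from 1078 ± 240.0 to 137 ± 45.6 FPKM and Cd36 from 235 ± 51.1 to 34.97 ± 4.72 FPKM (SD, n = 4). Their fold changes were -3.002 and -2.69, and control and CKD mice did not overlap for any of the 3 genes. Cyp4a genes are a family of near copies, and their values may share reads.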

How the data were processed

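The authors extracted RNA from whole kidneys, prepared stranded mRNA libraries (Illumina TruSeq) and sequenced single reads of 50 cycles on a HiSeq4000. Per the labels' processing notes, bcl2fastq 2.19, STAR 2.5.2, Cufflinks 2.1.1 and GRCm38 were used. The deposited values are FPKM of protein-coding genes, made by the authors, in 1 table of 22053 rows for 12 mice with 22007 distinct identifiers. Depth is not stated and was estimated from the FPKM worth of 1 read, with a fragment length of 200 bases assumed. The study's own count test (DESeq2) could not be run on FPKM.

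A gene was tested if it had at least 1 FPKM in at least 4 mice. Log2(FPKM + 1) was fitted for 13148 genes with limma 3.58.1 (R 4.3.3), all 12 mice in 1 fit, with a variance trend. P-values were adjusted over all genes tested by the method of Benjamini and Hochberg with a threshold of 0.05. Fold changes on this scale understate those of low genes. Exact two-sided permutation tests of 4 against 4 mice have 70 arrangements. The fit was also run on simulated data with independent noise and no shift of most genes. That run therefore does not cover the shift seen in CKD mice or mice that stand apart. 30 failed estimates in 17 genes, 0 of them members, were set to missing.

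Members, gene lists and tests were chosen with earlier results of these data known. Values in every mouse are given for the 6 mitochondrial and 6 peroxisomal members with the largest falls in CKD, every member with a positive fold change there, the 6 members with the largest and the 3 with the smallest fold change with iron, and the 2 most abundant of each compartment. Members whose call in CKD against control changed with rescaling are named. Of other genes, Ppara, Ppargc1a, Hnf4a, those of the pathway lists called with iron and the 3 largest falls are named. The Hadha to Hadhb and Acaa1b to Acaa1a ratios and the fits without the farthest mice or the mice with adipocyte transcripts were added after the data were seen. The other alternatives were another pseudocount (0.1), other filters, median-of-ratios rescaling, quantile normalization, fits of 2 groups, array weights, no variance trend and leaving out each mouse. Gene coordinates are those of the table. Start site windows come from RefSeq (GRCm38.p6). The windows of 7 members were not analysed here. Scripts used Python 3.11.15, scipy 1.17.1, pandas 2.3.3 and matplotlib 3.10.9.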

Additional observations from a re-analysis of the deposited data

Results flagged for a closer look

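In 9 of 144 sets of 4 mice (47 members and the difference between the compartment means, in 3 groups) 1 mouse stood apart, with its gap to the nearest other mouse too large a share of the range by Dixon's criterion (5%). Chance gives about 1 in 20, or 7.2 of 144. Control mouse 042301 was involved in 4 of them. It was the lowest of its group for Echs1 at 138 FPKM, Abcd3 at 115 FPKM and Slc27a2 at 1707 FPKM, and had the highest mitochondrial minus peroxisomal mean at 1.10 on the log2 scale. CKD+Fe mouse 042702 was the lowest of its group for Hsd17b4 at 66.3 FPKM and Acad11 at 24.1 FPKM. Acaa2 was highest in control mouse 012822 at 209.8 FPKM. In CKD mice, Slc25a20 was lowest in mouse 021320 at 28.9 FPKM and Acox3 was lowest in mouse 110310 at 28.8 FPKM.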

How the results depend on the processing

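The 12 mice were compared by relative values at an estimated 20.3 to 30.8 megareads each, so that a change of all RNA per kidney was not measured. Without any 1 mouse, 36 to 41 members were lower in CKD than in control mice (11.8 to 14.3% of all genes). The count was 37 with quantile normalization (25.6%) and 44 after rescaling (29.3%). At an adjusted p under 0.5, the threshold in the study's methods, 2 were higher in CKD. The share of all genes at 0.5 was not counted for any comparison, and 54.6% were already higher in CKD at 0.05. With iron, 6 were higher with array weights (0.692% of all genes) and 5 without the farthest mice (0.388%). At an adjusted p under 0.5, 5 were higher with iron, and without any 1 mouse 0 to 2 (0 to 0.0685%). For CKD+Fe against control, 27 to 33 were lower without any 1 mouse (9.42 to 11.1% of all genes) and 28 with quantile normalization (22.6%). There 0 were higher after rescaling (27.7% of all genes), 3 with array weights (62.9%) and 3 without the farthest mice (57.8%). At an adjusted p under 0.5, 4 were higher there, and without any 1 mouse 1 to 2 (50 to 54.7%). Rescaling gave medians of -1.62 (mitochondrial) and -1.67 (peroxisomal) for CKD against control and of -1.19 and -1.17 for CKD+Fe against control. As a mean over members, the mitochondrial values were -1.32 and -0.98. The mitochondrial minus peroxisomal mean was 0.73 for control, 0.73 for CKD and 0.64 for CKD+Fe mice with the members of several compartments counted as peroxisomal, and 0.68 in CKD+Fe mice with them counted as mitochondrial. For CKD against control, 444 values of single members under settings other than a left-out mouse kept their direction and side of the threshold, 14 passed it newly and 7 no longer passed it. Single members turned direction as follows, and the cause was not tested. For CKD against control these were Hadha (-0.37 after rescaling), Hacl1 (-0.35 after rescaling, -0.057 with quantile normalization) and Acsl1 (-0.55, -0.067, and -0.22 to 0.26 without any 1 mouse). For CKD+Fe against CKD without the mice with adipocyte transcripts, Slc27a2 was at -0.030, Hadha at -0.016 and Cpt1a at -0.073. Acaa1a was at 0.0052 after rescaling, 0.044 with array weights, 0.038 without the farthest mice, 0.16 without the mice with adipocyte transcripts and -0.12 to 0.16 without any 1 mouse. Without any 1 mouse the iron values of Slc27a2 ran from -0.090 to 0.38, of Acads from -0.047 to 0.34, of Acsm3 from -0.18 to 1.12, of Acsm2 from -0.082 to 0.60, of Eci2 from -0.014 to 0.23 and of Cpt1a from -0.052 to 0.31. For CKD+Fe against control, Acaa1b was at -0.40 after rescaling, -0.36 without the mice with adipocyte transcripts and -0.030 to 0.46 without any 1 mouse, and Acot3 at -0.051 after rescaling and -0.18 with quantile normalization. Acaa2 was at 0.24 with quantile normalization, 0.15 with array weights, 0.12 without the farthest mice and -0.17 to 0.14 without any 1 mouse. No paired analysis was possible because the groups share no mouse number.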
